A study of Mus musculus with 2 samples.

Results

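The E9.5 mandibular arch library held 221 epithelial cells with at least 1 UMI of Epcam, at least 1 UMI of Foxa2 and no UMI of Pax1. They were 221 of 4816 Epcam-positive cells (4.59%, exact 95% binomial interval 4.02 to 5.22%), of 12744 E9.5 cells kept and of 24099 cells kept in both libraries. A UMI is a molecular tag that counts 1 captured transcript. A cell was kept with 200 to 5500 genes and at most 10% of its UMIs from mitochondrial (mt-) genes. The single cell study profiled the mouse lower jaw to learn how its epithelium is divided into regions. Its E9.5 library pooled whole mandibular arches of 8 embryos of 1 litter, dissociated with TrypLE and not sorted, so mesenchyme and all epithelia of the arch were present. Its E12.0 library pooled GFP-positive epithelial cells sorted from 6 embryos of 1 litter. The reporter played no part in choosing E9.5 cells. All embryos of both libraries were K14Cre;R26mT/mG, with the reporter line on a C57BL/6J background and the Cre line, once mixed, crossed to it for generations, and in them Cre driven by the Keratin 14 promoter switches a membrane reporter from tdTomato to GFP. There was 1 library per stage and no replicate, so no test was possible, and every interval given covers counting error only.

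FOXA2 is a forkhead transcription factor that opens chromatin for other factors in the definitive endoderm, the notochord and the floor plate, and the foregut endoderm of the early embryo also carries FOXA1 and the signalling ligand SHH. The pharyngeal endoderm lines the inner side of the arches, meets the ectoderm at the mouth opening, forms the PAX1- and PAX9-bearing pouches laterally, and gives rise ventrally to the thyroid primordium, which combines NKX2-1, HHEX, PAX8 and FOXE1. PITX1 is a homeodomain factor of the oral ectoderm, and TRP63 is the master regulator of stratified epithelia.

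The 221 cells were proposed as endoderm, with Foxa2, Foxa1, Shh, Hhex and Nkx2-1 as markers, and these markers gave a mixed answer. Foxa2 and Pax1 chose the cells and are no evidence. Of the other 4 proposed markers, Shh was in 27.1% of the members and 7.02% of the Pax1-positive cells defined below, Hhex in 8.60% and 4.78%, Nkx2-1 in 2.71% and 0.562%, and Foxa1, in the other direction, in 6.79% and 15.2%. Pitx1 of the oral ectoderm was in 82.4% and 19.9% of these cells and Trp63, which is also on the foregut list, in 42.5% and 13.8%. Other genes of the ectoderm list went the other way, Irx1 in 14.03% and 52.2%, Irx2 in 5.88% and 19.9% and Vgll2 in 34.4% and 60.7%. Because markers of both endoderm and oral ectoderm were present, they are called Foxa2-positive Pax1-negative epithelial cells below, with no cell type name. For comparison, 2 groups of the same library were used, 356 Epcam-positive cells with a Pax1 UMI, and 4064 Epcam-positive cells with no UMI of Foxa1, Foxa2, Shh or Pax1, called marker-free cells. The 5829 mesenchymal cells, without Epcam and with at least 2 UMIs of Twist1 and Prrx1 together, were set beside them: they show the background of free RNA for genes that mesenchyme lacks, while others such as Tfap2b, Barx1, Acta2 and Ptch1 may be expressed there.

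Depth was alike in the groups. The median Foxa2-positive Pax1-negative cell had 13011 UMIs (lowest 1124, highest 28452) from 3949 genes, and all of them summed to 3074183 UMIs. Medians were 13906 UMIs in the Pax1-positive, 13480.5 in the marker-free and 15244 in the mesenchymal cells. Expression is given as CPM, a group total for the gene per 1000000 UMIs of that group, and is not corrected for gene length, so levels are compared between groups and not between genes. Mesenchymal transcripts were present in every epithelial group: at least 2 UMIs of Twist1 and Prrx1 were found in 15.8% of the Foxa2-positive Pax1-negative, 19.1% of the Pax1-positive and 31.0% of the marker-free cells. Scrublet, which scores cells against simulated mixtures, called 5.43%, 3.65% and 4.77% of these groups doublets. The libraries shared 51 barcodes, and 1 of them belonged to a Foxa2-positive Pax1-negative cell.

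The Foxa2 threshold was passed narrowly by most members. Foxa2 (ENSMUSG00000037025) lies on chromosome 2 from 148042877 to 148046969 in GRCm38, on the minus strand. It was counted once in 165 of the 221 cells, 2 times in 34 and 3 or more times in 22. Pooled, this came to 102 CPM (91.2 to 114), against 18.4 CPM (14.9 to 22.5) in the Pax1-positive cells, 68 of which had a UMI of it, and 0.175 CPM in the mesenchymal cells, where 0.240% of cells had a UMI. When each cell was thinned to 5000 UMIs, Foxa2 was found in 46.0% of the 213 members deep enough. Every member had a Foxa2 UMI by the rule, so this share follows from the rule and the depth and is no evidence. Epcam was counted once in 20 members and at least 3 times in 171.

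**Figure D1:**
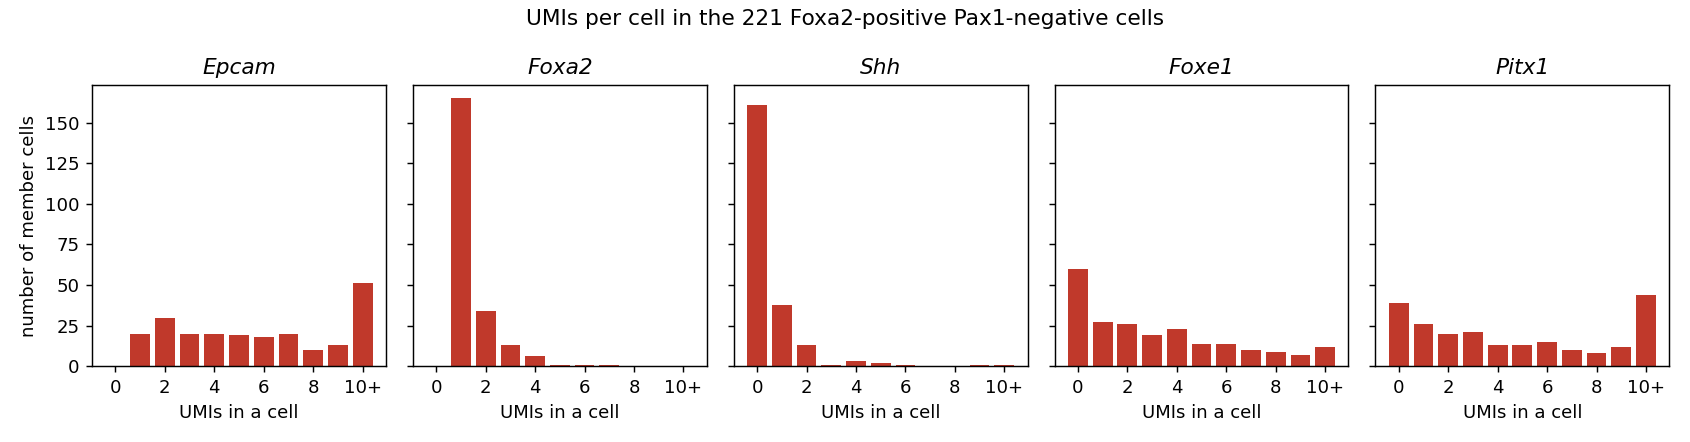
Number of the 221 Foxa2-positive Pax1-negative cells (y axis) by UMIs of a gene in the cell (x axis, 10 or more pooled), for 5 genes. Foxa2 was at 1 UMI in 165 cells and Shh at 0 in 161, while Foxe1 and Pitx1 were spread from 0 to 10 or more.

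Pitx1 and Foxe1 were abundant on both sides of that threshold. The 165 members with 1 Foxa2 UMI had 374 CPM of Pitx1 and 218 CPM of Foxe1, and the 56 with 2 or more had 349 and 298 CPM. Just outside it were 175 Epcam-positive, Pax1-negative cells with no Foxa2 UMI but with a UMI of Foxa1 or Shh, which had 227 CPM of Pitx1 and 202 CPM of Foxe1. Acta2 was at 32.2 CPM in members with 1 Foxa2 UMI and 102 CPM in those with more. The 68 cells with both Foxa2 and Pax1 UMIs had 33.4 CPM of Pitx1 and 81.6 CPM of Pax9.

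Factors of the gut and foregut endoderm were mostly at or near 0. No UMI of Hnf4a, Gata4, Cdx2 or Onecut1, which specify hepatic, pancreatic and intestinal endoderm, was found, which allows up to 0.976 CPM of each (3 counts of the group's total) and a share of up to 1.36% of cells with a UMI. Sox17, an early endoderm factor, gave 3 UMIs, all in 1 cell, and Foxa3 3 UMIs in 3 cells. Foxa1 reached 5.86 CPM (3.47 to 9.25) in 15 cells, less than the 12.4 CPM (9.57 to 15.9) of the Pax1-positive cells, a log2 ratio of -1.08 (-1.93 to -0.31). Prox1, a homeobox gene of hepatic and pancreatic buds and of placodes, was at 13.99 CPM (10.1 to 18.8) here, 8.15 CPM (5.87 to 11.02) in the Pax1-positive and 5.21 CPM in the marker-free cells. Hepatic and yolk sac secretory genes such as Afp, Alb and Ttr totalled no more than 8 UMIs for any of the 10 on the list. Of 11 notochord and floor plate genes, 6 had no UMI, among them T and Noto, Chrd had 1, and Spon1, which other tissues express too, gave the most UMIs, 26 in 18 cells.

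The thyroid genes differed widely in how many members carried them. Foxe1 (ENSMUSG00000070990, chromosome 4 from 46343609 to 46346412, plus strand), a forkhead factor of the thyroid bud, palate and oropharynx, was at 240 CPM (223 to 258) here, 71.8 CPM (64.7 to 79.5) in the Pax1-positive, 24.1 CPM in the marker-free and 1.63 CPM in the mesenchymal cells. The log2 ratio was 1.74 (1.56 to 1.93) against the Pax1-positive cells, 0.89 among cells with a Pitx1 UMI, and 3.32 (3.19 to 3.45) against the marker-free cells. Hhex was at 14.96 CPM (10.96 to 20.0) in 19 cells, and also at 7.46 CPM in the mesenchymal cells. Nkx2-1 had 7 UMIs in 6 cells and Pax8 5 UMIs in 4 cells, while Tg, the thyroglobulin gene, had none. A UMI of at least 1 of Hhex, Nkx2-1 and Pax8 was found in 26 members (11.8%, 7.83 to 16.8%) and of 2 or more in 2 members. Those shares were 6.74% in the Pax1-positive and 5.24% in the marker-free cells for at least 1, and 0.562% and 1.35% for 2 or more, against 0.905% of the members. Endothelial cells carry Hhex as well, and 2 of the 19 Hhex-positive members had a UMI of an endothelial marker. Any of 5 such markers was found in 8.14% of the members, 8.43% of the Pax1-positive and 9.45% of the marker-free cells.

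Co-detection within the members was examined after thinning to 5000 UMIs, so that depth was equal. Of 15 pairs among Hhex, Nkx2-1, Pax8, Foxe1, Foxa1 and Shh, 1 pair had an interval that lay above the product of its shares. Foxe1 and Shh were found together in 33 of 213 cells where 20.8 would follow from 57.7% and 16.9%, a ratio of 1.59. The interval of that ratio, 1.12 to 2.16, is that of the joint share alone, takes both single shares as fixed, and so can pass the largest ratio possible. Of the 36 thinned cells with Shh, 33 had Foxe1 (91.7%, 77.5 to 98.2%), and of the 177 without Shh, 90 had it (50.8%, 43.2 to 58.4%). Without thinning these were 56 of 60 and 105 of 161 cells, and the ratio was 1.28 (0.998 to 1.60). The members with a Shh UMI had 348 CPM of Foxe1 and those without one 197 CPM.

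A gene on the opposite strand moved with Foxe1. Gm12446 (ENSMUSG00000087383), annotated as an antisense gene on chromosome 4 from 46300007 to 46345515, was at 56.3 CPM (48.2 to 65.3) here, 23.5 CPM in the Pax1-positive and 4.82 CPM in the marker-free cells, log2 ratios of 1.26 (0.92 to 1.61) and 3.55 (3.26 to 3.83). The first exon of 1 of its 2 transcripts lies inside Foxe1, and that of the other starts 178 bases before it. The chemistry reads the 3′ ends of transcripts and keeps strand. How the counting treated the overlap is not given in the sources used here, so the split of UMIs between both genes is uncertain.

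Of 9 oral and surface ectoderm genes compared with the Pax1-positive cells, 4 were higher and 3 lower by a 2-fold size rule given below, which over all genes called 1.09% higher and 0.621% lower. The median log2 ratio of these 9, with 5 CPM added, was 0.98, beside 0.0037 over all genes compared. Of 9 compared with the marker-free cells, Pitx1 was higher and Tfap2b and Wnt6 were lower, beside 0.916% and 0.361% of all genes, and their median log2 ratio with 5 CPM added was -0.28, beside 0.023 over all genes compared. Pitx1 (ENSMUSG00000021506, chromosome 13 from 55825051 to 55836192) was at 367 CPM (346 to 389) here, 37.5 CPM (32.4 to 43.1) in the Pax1-positive, 136 CPM in the marker-free and 4.57 CPM in the mesenchymal cells, a log2 ratio of 3.29 (3.07 to 3.52) against the Pax1-positive cells and 1.43 (1.34 to 1.52) against the marker-free cells. Trp63 was at 53.7 CPM (45.8 to 62.5), 12.6 CPM and 38.7 CPM in the members, the Pax1-positive and the marker-free cells, and Krt14, the basal keratin whose promoter drives the Cre, at 22.1 CPM (17.2 to 28.0), 2.13 CPM and 12.1 CPM. Other genes of that list went the other way: Irx1 was at 15.3 CPM (11.2 to 20.3) against 93.2 CPM (85.0 to 102) in the Pax1-positive cells, Vgll2, a TEAD cofactor, at 101 CPM (90.2 to 113) against 258 CPM (244 to 272), and Irx2 at 4.88 CPM against 17.7 CPM.

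**Figure D2:**
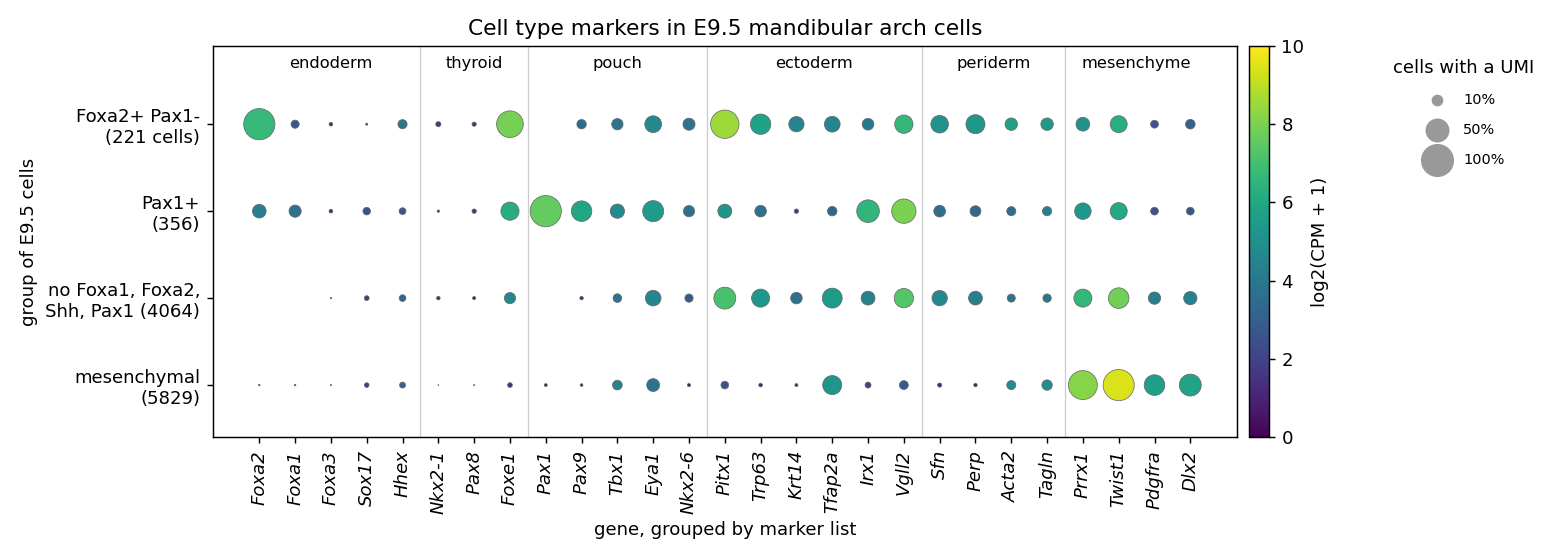
Marker genes (x axis, grouped by list) in 4 groups of E9.5 cells (y axis). Dot area is the percentage of cells with a UMI and colour is log2(CPM + 1). Foxa2 and Pax1 were used to choose the groups. The Foxa2-positive Pax1-negative row has large dots for Pitx1 (82.4%) and Foxe1 (72.9%) and small ones for Foxa1 (6.79%) and Hhex (8.60%).

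Across all genes, a gene was counted as higher or lower when its CPM, with 5 added on both sides, differed at least 2-fold and at least 15% of the cells in the higher group had a UMI. Against the Pax1-positive cells, 86 of 7887 genes compared were higher (1.09%) and 49 lower (0.621%). Against the marker-free cells, 71 of 7754 were higher (0.916%) and 28 lower (0.361%). The rule that chose the cells acted on both contrasts, so these counts describe the groups. Both comparisons share the 221 members. Higher in both were 33 genes, 38.4% of one list and 46.5% of the other, and lower in both 6 genes, 12.2% and 21.4%. No gene was higher in one comparison and lower in the other.

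**Figure D3:**
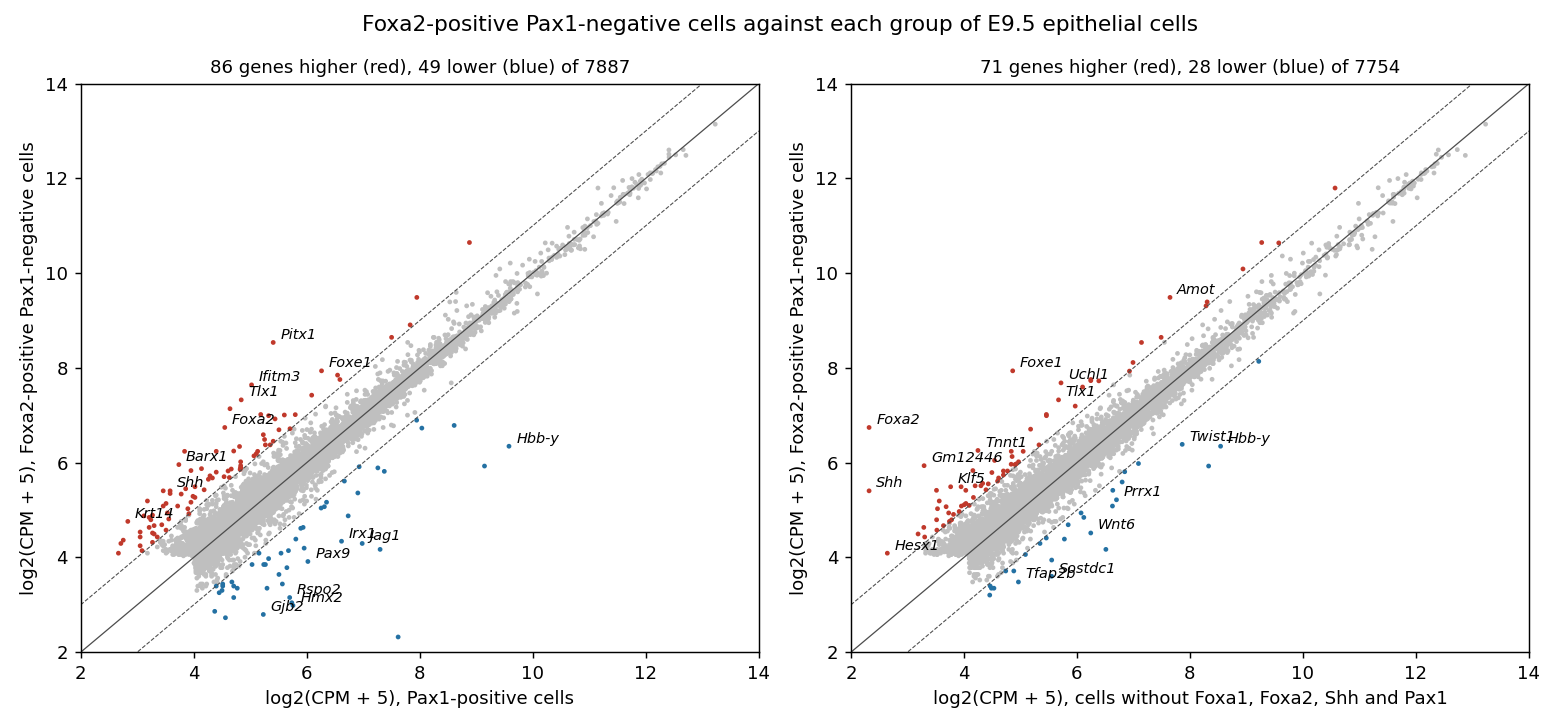
Mean expression, as log2(CPM + 5), of each gene compared in the Foxa2-positive Pax1-negative cells (y axis) against Pax1-positive cells (left x axis) and marker-free cells (right x axis). Dashed lines mark 2-fold. Red points are genes counted as higher (86 left, 71 right) and blue points genes counted as lower (49 left, 28 right).

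Among the genes leading the 86 were Pitx1, Ifitm3, Tlx1, Pmp22 and Barx1. Ifitm3, which encodes a membrane protein of antiviral defence, was at 195 CPM (180 to 211) against 27.6 CPM (23.2 to 32.5). Tlx1 (ENSMUSG00000025215, chromosome 19 from 45150680 to 45156943), a homeobox gene known from spleen formation and the branchial arches, was at 155 CPM (142 to 170) against 23.7 CPM (19.7 to 28.3), log2 ratio 2.72 (2.43 to 3.01). It was at 46.1 CPM in the marker-free cells, log2 ratio 1.75 (1.61 to 1.90). Barx1, a homeobox gene of the stomach and of molar mesenchyme, was at 57.3 CPM (49.1 to 66.4) against 8.35 CPM (6.04 to 11.2). It was at 39.6 CPM in the mesenchymal cells. The calcium channel gene Trpc5 was at 31.6 CPM (25.6 to 38.5) against 4.08 CPM (2.52 to 6.23), Tbx3 at 70.6 CPM (61.5 to 80.6) against 16.1 CPM and Car4, a membrane carbonic anhydrase gene, at 125 CPM (112 to 138) against 31.4 CPM.

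The 49 genes lower than in the Pax1-positive cells were led, after Pax1 itself, by globin genes and by a set of transcription factors and signals. Hmx2 was at 2.93 CPM (1.34 to 5.56) against 49.1 CPM (43.2 to 55.5) and its neighbour in the family Hmx3 at 3.25 CPM against 48.3 CPM. Jag1, a Notch ligand gene, was at 14.6 CPM (10.7 to 19.6) against 121 CPM (112 to 131), a log2 ratio of -3.05 (-3.52 to -2.62). Rspo2, a secreted WNT enhancer, was at 3.90 CPM against 47.0 CPM, the connexin gene Gjb2 at 1.95 CPM against 32.6 CPM and the tight junction gene Cldn10 at 5.86 CPM against 42.5 CPM. Pax9 was at 10.1 CPM (6.85 to 14.3) against 60.0 CPM (53.5 to 67.0), a log2 ratio of -2.57 (-3.15 to -2.04). Apart from Pax1, which chose the cells, 6 pouch genes could be compared, of which Pax9 was lower and none higher, beside 0.621% lower over all genes. Their median log2 ratio with 5 CPM added was -0.69, beside 0.0037 over all genes compared. Against the marker-free cells 4 pouch genes could be compared, of which Nkx2-3 and Nkx2-5 were higher and none lower, beside 0.916% higher over all genes, and their median was 0.60. Pax9 was at 1.24 CPM (0.962 to 1.56) in the marker-free cells, below its level in the members.

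The globin transcripts Hbb-y, Hba-x and Hbb-bh1 were lower in CPM in both comparisons. Hbb-y was at 76.4 CPM (67.0 to 86.9) here, 761 CPM in the Pax1-positive and 368 CPM in the marker-free cells, yet 64.3%, 60.4% and 59.2% of cells had a UMI of it. Hbb-bh1 was in 15.8%, 18.5% and 17.9% of cells. The part of red cell RNA in the differences of the globin genes was not tested.

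In order of their ratio to the marker-free cells, after Foxa2, Shh, Foxe1 and Gm12446 came Tnnt1, the slow skeletal troponin T gene, at 71.6 CPM (62.4 to 81.7) against 14.01 CPM (13.04 to 15.03), log2 ratio 2.35 (2.13 to 2.57), and Uchl1, a deubiquitinase gene, at 201 CPM (185 to 217) against 47.7 CPM. Uchl1 was higher still in the Pax1-positive cells, at 372 CPM (356 to 389). Myh7, a slow myosin gene, was at 37.7 CPM (31.2 to 45.3) against 6.43 CPM, Amot, which binds the Hippo effector YAP1, at 713 CPM (684 to 744) against 196 CPM (192 to 199), and Klf5, a factor of gut and skin epithelia, at 40.0 CPM (33.3 to 47.7) against 8.60 CPM. Hesx1, a homeobox gene of the anterior neural plate and Rathke's pouch, was at 12.0 CPM (8.47 to 16.6) here, 1.36 CPM in the Pax1-positive and 1.25 CPM in the marker-free cells. Other genes of the pituitary list did not accompany it, since Lhx3 and Rax had no UMI and Six6 had 4.

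Foxa2 and 2 genes that were higher in both comparisons are shown by the 250 bases before their start, the first as the gene that chose the cells, Cd59a and Pdpn as genes that hold a forkhead motif there. Foxa2 has several RefSeq starts and the outermost is shown. RefSeq promoter sequences in build GRCm38.p6 were on hand for 22 of the 33 genes higher in both. The letters TGTTTAC and TGTTTGC, which are forms of the forkhead core that differ in 1 letter, so that no site matches both, were searched on both strands. They were found in 3 of the 22 genes (Cd59a, Dapl1 and Pdpn) and in 8.22% of all 27025 genes with a promoter sequence. Capitals mark a match, and a match is a description of letters and not a binding site. The Cd59a match, TGTTTGC on the opposite strand, begins 247 bases before the start and the Pdpn match, TGTTTAC, 153 bases before it.
Foxa2, chr2:148046970-148047219, minus strand: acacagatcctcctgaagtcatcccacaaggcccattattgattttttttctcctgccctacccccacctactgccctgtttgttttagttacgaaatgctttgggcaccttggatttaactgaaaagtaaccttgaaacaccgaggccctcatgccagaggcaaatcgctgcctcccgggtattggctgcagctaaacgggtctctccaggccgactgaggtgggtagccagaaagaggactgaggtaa
Cd59a, chr2:104095551-104095800, plus strand: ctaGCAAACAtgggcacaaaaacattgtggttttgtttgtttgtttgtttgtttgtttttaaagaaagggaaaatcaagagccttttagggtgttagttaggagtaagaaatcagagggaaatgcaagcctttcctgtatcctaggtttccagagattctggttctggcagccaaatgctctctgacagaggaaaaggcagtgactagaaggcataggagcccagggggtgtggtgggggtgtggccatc
Pdpn, chr4:143299565-143299814, minus strand: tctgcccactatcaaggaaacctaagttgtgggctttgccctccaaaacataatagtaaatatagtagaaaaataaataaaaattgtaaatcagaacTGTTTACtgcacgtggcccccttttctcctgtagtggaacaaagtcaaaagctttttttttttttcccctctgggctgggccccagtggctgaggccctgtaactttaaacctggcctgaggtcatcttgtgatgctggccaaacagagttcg

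The letters ACCACCC, the core that GLI factors recognise, were found in 2 of the 22 genes (Mycl and Rbm24) and in 4.54% of all genes. Cd59a, which encodes an inhibitor of complement, was at 122 CPM (110 to 135) here, 35.1 CPM in the Pax1-positive and 39.0 CPM in the marker-free cells. Pdpn, the gene of the membrane glycoprotein podoplanin, was at 29.0, 8.15 and 10.5 CPM in the same order.

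The 28 genes lower than in the marker-free cells held globin, mesenchymal and signalling genes. Twist1 was at 78.7 CPM (69.1 to 89.3) against 228 CPM, Prrx1 at 32.2 CPM (26.2 to 39.2) against 99.0 CPM and Dlx5 at 10.4 CPM against 42.0 CPM. Of 8 arch mesenchyme genes on the list, 4 could be compared, and 3 were lower (Twist1, Prrx1 and Pdgfra), beside 0.361% lower over all genes, with the most UMIs (242) from Twist1. At least 2 UMIs of Twist1 and Prrx1 were in 15.8% of the members and 31.0% of the marker-free cells. When at least 3 Epcam UMIs were required in every group, 9 of those 28 genes were still lower and the log2 ratio of Twist1, with 5 CPM added, was 0.22. In another setting, cells with 2 or more UMIs of Twist1 and Prrx1 together were left out of every group. Of the 28 genes 11 were then still lower, and of the 71 higher genes 44 were still higher. Among the epithelial signals, Wnt6 was at 17.9 CPM (13.5 to 23.3) against 70.9 CPM, Sostdc1, a BMP and WNT antagonist gene, at 7.16 CPM (4.48 to 10.8) against 41.9 CPM, and Fgf8 at 37.7 CPM (31.2 to 45.3) against 94.4 CPM. Tfap2b, an AP-2 factor gene of the surface ectoderm and crest, was at 6.18 CPM (3.72 to 9.65) against 26.2 CPM, and at 64.5 CPM in the mesenchymal cells.

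In the hedgehog pathway, SHH binds the receptor PTCH1 and so frees SMO, which activates GLI factors, and PTCH1 and GLI1 are themselves targets. Shh (ENSMUSG00000002633, chromosome 5 from 28456815 to 28467256) was at 37.4 CPM (30.9 to 44.9) in 60 members and at 6.99 CPM (4.89 to 9.67) in the Pax1-positive cells, a log2 ratio of 2.42 (1.87 to 3.003). It was 0 in the marker-free cells by the rule, and neither Ihh nor Dhh had a UMI in the members. Ptch1 was at 189 CPM (174 to 205) here, 166 CPM (155 to 177) in the Pax1-positive and 63.6 CPM in the marker-free cells, a log2 ratio of 1.57 (1.44 to 1.70) against the last. Gli1 was at 9.43 CPM (6.32 to 13.5), 10.7 CPM and 3.89 CPM in the same groups, and its difference between the members and the Pax1-positive cells was not detectable at this depth. Gas1, a co-receptor that such signalling lowers, was at 43.3 CPM (36.2 to 51.3), 69.3 CPM and 106 CPM. Smo was at 91.4, 85.4 and 100.0 CPM, within a narrower range than Ptch1 or Gas1. Ptch1 was at 271 CPM in the members with a Shh UMI and 155 CPM in those without.

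**Figure D4:**
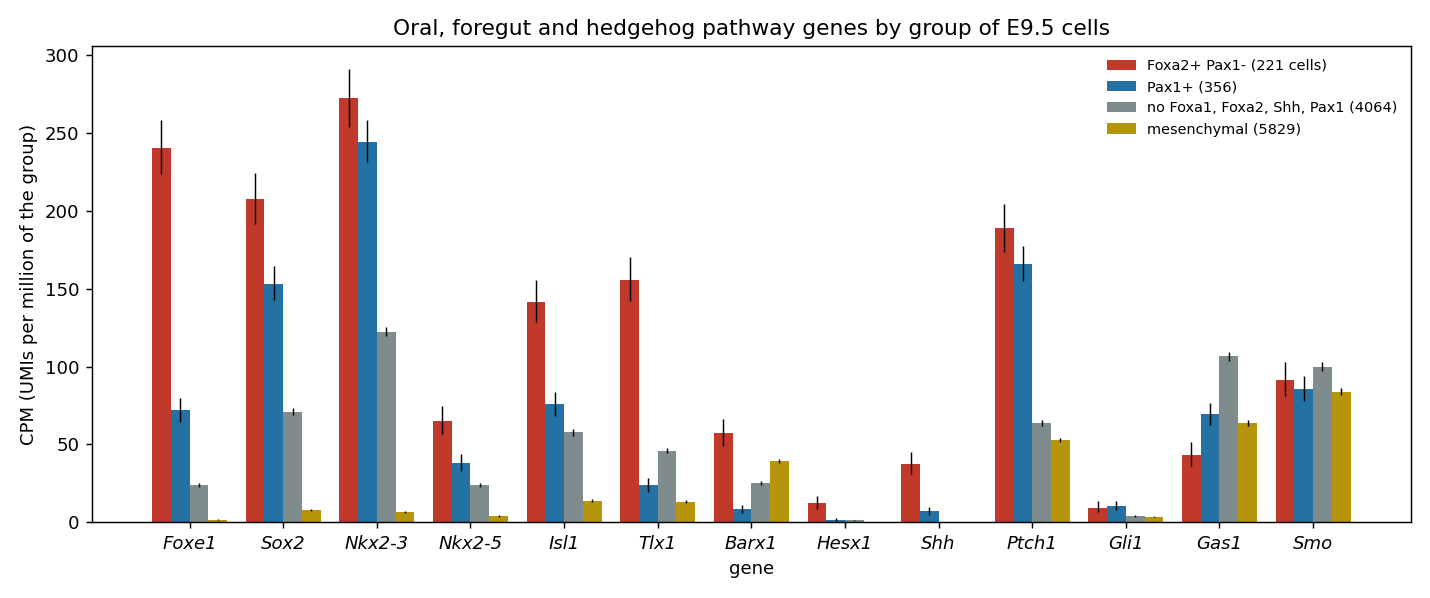
CPM (y axis) of oral, foregut and hedgehog genes (x axis) in 4 groups of E9.5 cells. Bars start at 0 and error bars are exact 95% Poisson intervals of the summed UMIs. Foxe1 fell from 240 to 71.8, 24.1 and 1.63 CPM over the groups in the order of the legend, and Ptch1 was at 189 and 166 CPM in the first pair and at 63.6 and 52.7 CPM in the others.

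Of the lung, oesophagus and ventral foregut list, 6 genes could be compared with the Pax1-positive cells, and Barx1 and Trp63 were higher and Irx3 lower, beside 1.09% and 0.621% of all genes. Against the marker-free cells 7 could be compared, and Sox2, Barx1 and Isl1 were higher, beside 0.916% higher over all genes. Sox2, a factor of foregut and taste epithelium, was at 208 CPM (192 to 224) here, 153 CPM (143 to 164) in the Pax1-positive and 70.9 CPM in the marker-free cells. Nkx2-3 was at 272 CPM (254 to 291), 245 CPM and 122 CPM, Nkx2-5 at 65.1 CPM (56.4 to 74.7), 37.8 CPM and 23.9 CPM, and Isl1 at 142 CPM (129 to 155), 75.9 CPM and 57.7 CPM. These 4 genes passed the size rule against the marker-free but not against the Pax1-positive cells. The retinoic acid receptor gene Rarb was at 40.7 CPM (33.8 to 48.4), 32.4 CPM and 14.7 CPM, and its paralogue Rara at 22.8, 22.9 and 17.9 CPM. Of 8 retinoic acid genes compared with the Pax1-positive cells none was higher or lower, beside 1.09% and 0.621% of all genes. Of 6 compared with the marker-free cells Rarb was higher, beside 0.916% of all genes. Crabp1, a retinoic acid binding protein gene, was lower, beside 0.361%. Crabp1 was at 277 CPM (259 to 296), 190.2 CPM and 591 CPM, and at 1404.5 CPM in the mesenchymal cells.

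Ligands of other pathways differed in either direction. Of 7 FGF ligand genes only Fgf8 could be compared, and Fgf3, Fgf15, Fgf17 and Fgf20 had no UMI in the members. Wnt4 was at 76.1 CPM (66.7 to 86.5), 23.1 CPM and 113 CPM in the members, the Pax1-positive and the marker-free cells, and the WNT effector gene Lef1 at 70.9 CPM (61.8 to 81.0), 21.2 CPM and 46.2 CPM. Of 14 WNT genes 9 could be compared with the Pax1-positive cells, and these 2 were higher and none lower, beside 1.09% higher over all genes. The median log2 ratio of the 9, with 5 CPM added, was -0.18, beside 0.0037 over all genes compared. Against the marker-free cells 9 could be compared, and Wnt6 was lower and none higher, beside 0.361% lower over all genes, with a median of -0.28. Of the BMP list 7 genes could be compared with the Pax1-positive and 6 with the marker-free cells, and none passed the size rule, which 1.09% and 0.916% of all genes passed in the higher direction. Bmp2 was at 8.46 CPM (5.52 to 12.4) in 7.69% of the members, under the share that the rule asks for, against 2 UMIs in the Pax1-positive cells. Of 12 Notch genes 7 could be compared with the Pax1-positive cells, and Jag1 and Hey1, a Notch target, were lower, beside 0.621% over all genes. Hey1 was at 9.43 CPM (6.32 to 13.5) against 27.8 CPM (23.4 to 32.7).

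Krt8 and Krt18, the keratin pair of simple epithelia, were higher than in the marker-free cells. Krt8 was at 667 CPM (639 to 697) here, 365 CPM in the Pax1-positive and 311 CPM in the marker-free cells, and Krt18 at 1084 CPM (1048 to 1122), 679 CPM and 486 CPM. Of 18 genes for simple keratins and junctions 16 could be compared with the marker-free cells, and only these 2 were higher, beside 0.916% of all genes, with a median log2 ratio of 0.51 beside 0.02 over all genes compared. Cdkn1c, a brake on the cell cycle, was at 396 CPM (374 to 418) against 176 CPM and 175 CPM, and Cdkn1a, another, at 50.7 CPM (43.1 to 59.4) against 16.1 CPM and 27.0 CPM. Genes of cycling cells did not follow: Mki67 was at 343 CPM (322 to 364), 391 CPM and 320 CPM, and Top2a at 568, 617 and 541 CPM.

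Periderm genes were unevenly spread. Acta2, the smooth muscle actin gene of contractile periderm, was at 52.0 CPM (44.3 to 60.8) here, 10.5 CPM in the Pax1-positive, 12.9 CPM in the marker-free and 26.2 CPM in the mesenchymal cells, but only 15.8% of the members had a UMI. Tagln was at 40.7 CPM (33.8 to 48.4), 18.2 CPM and 13.4 CPM in the epithelial groups, but in cells with a Y-linked UMI its log2 ratio against the marker-free cells, with 5 CPM added, was -0.60. Sfn was at 34.2 CPM (27.9 to 41.3), 10.9 CPM and 25.1 CPM. Perp, a desmosome gene, was at 38.7 CPM (32.1 to 46.3), 9.51 CPM and 18.6 CPM. Of 4 periderm genes compared with the Pax1-positive cells, Sfn, Perp and Acta2 were higher, beside 1.09% of all genes, and of 4 compared with the marker-free cells, Acta2 and Tagln, beside 0.916%. Gabrp and Krt6a had no UMI in the members and none in the Pax1-positive cells.

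Since many marker-free cells lacked Pitx1, the comparison was repeated among cells with a Pitx1 UMI, a choice made after seeing the data. It left 182 members, 71 Pax1-positive and 1995 marker-free cells. Against the marker-free cells 40 genes were then higher and 17 lower, of which 33 and 9 were among the earlier 71 and 28. Foxe1 was at 232 CPM against 36.9 CPM, log2 ratio 2.65 (2.51 to 2.80), Tlx1 at 176 CPM against 63.3 CPM, log2 ratio 1.48 (1.33 to 1.63), and Ptch1 at 170 CPM against 66.3 CPM, log2 ratio 1.35 (1.20 to 1.504). Sox2, Nkx2-3, Nkx2-5, Isl1, Krt8 and Krt18, described above, were no longer higher by the size rule, with log2 ratios of 0.85, 0.75, 0.94, 1.03, 0.88 and 0.85 before 5 CPM was added. Against the Pax1-positive cells 93 genes were then higher and 44 lower, of which 59 and 31 were among the earlier 86 and 49. Foxe1, Gm12446 and Wnt4 were among those that no longer passed the size rule there. Foxe1 was at 232 CPM against 125 CPM, log2 ratio 0.89 (0.63 to 1.15), and Gm12446 at 50.1 CPM against 31.5 CPM, log2 ratio 0.67 (0.14 to 1.22). Wnt4 was at 83.0 CPM against 51.0 CPM, log2 ratio 0.70 (0.29 to 1.13). Against the marker-free cells, Vgll2 and Irx3, which did not pass the rule before, were lower, at 81.5 CPM against 263 CPM and 21.0 CPM against 53.7 CPM. The Pax1-positive cells with Pitx1 still had 41.2 CPM of Pax9 against 3.44 CPM in the members.

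The 39 members without a Pitx1 UMI had more Pax9, Tbx1, Jag1 and Foxa1 than the others. They had 47.7 CPM of Pax9, 39.1 CPM of Tbx1, 67.3 CPM of Irx3, 49.9 CPM of Jag1, 17.4 CPM of Foxa1 and 62.9 CPM of Shh, against 3.44, 9.9, 21.0, 8.42, 3.83 and 32.9 CPM in the 182 members with Pitx1. They were shallower, with a median of 10733 UMIs against 13497, and 23.1% of them had at least 2 mesenchymal UMIs against 14.3%.

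Clustering split the 221 cells into 5 clusters. It was run without the genes of any list, so that list genes can be described in the clusters, although genes that vary with them took part and no test follows. The clusters were not separate in every setting. At a resolution of 0.3 the cells fell into clusters of 135, 64 and 22 cells, and the first of these had 312 CPM of Foxe1 and 49.6 CPM of Shh. With the list genes kept, 1 cluster of 62 cells had 229 CPM of Pitx1 and 273 CPM of Vgll2, and with 30 components 1 of 68 cells had 240.0 and 256 CPM, between the values of clusters 3 and 4 below. Without called doublets there were clusters of 79, 66 and 64 cells, with at most 105 CPM of Twist1, which was at 405 CPM in cluster 5. Cluster 1 held 76 cells and was led by Pkp3, Pla2g4a, Fam83f, Pltp, S100a6 and Sfn, genes that include a desmosomal plakophilin and a keratinocyte stratifin. It had the highest levels of Pitx1 (569 CPM), Trp63 (98.3 CPM), Krt14 (44.5 CPM) and Sfn (70.3 CPM) among the clusters and no UMI of Pax9. Of 9 ectoderm markers, 4 were raised, among them Pitx1, Trp63 and Krt14, by at least 1.5 times over the other members, while Vgll2 was at 11.4 CPM against 142 CPM in the others, Irx1 at 6.21 CPM against 19.5 CPM and Tfap2b at 1 UMI.

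Cluster 2 held 54 cells and was led by Shisa2, Tceal3, Tagln, Ckb and Rprm, with Prox1 and Barx1 also among the leading 10. Foxe1 (425 CPM), Shh (75.7 CPM), Barx1 (122 CPM) and Top2a (867 CPM) were at their highest there. The thyroid markers Nkx2-1, Hhex, Pax8 and Foxe1 were all raised there, but 5 UMIs of Nkx2-1, 24 of Hhex and 4 of Pax8 carried this, and none of the 4 was among its leading genes, so the cluster was given no name. Of the endoderm markers, Foxa1 and Shh were raised there beside Hhex and Nkx2-1.

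Cluster 3 held 45 cells and was led by Fgf8, Gsc, Gm45889, Aqp4, Irx1 and Sema3a. Fgf8 was at 112 CPM there and 19.8 CPM in the other members. Foxa1 had no UMI in it and Shh was at 11.7 CPM.

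Cluster 4 held 24 cells and was led by genes that include Gdnf, Adamts5, Cavin2, Cyp26a1 and Hhip. Gdnf, a growth factor gene of the gut and kidney, was at 51.7 CPM there and 0.364 CPM in the others. The cluster was highest in Foxa2 (161 CPM), Foxa1 (18.2 CPM), Pax9 (48.6 CPM), Vgll2 (401 CPM), Acta2 (201 CPM) and Ptch1 (386 CPM), and lowest in Pitx1 (97.2 CPM). Of the pouch markers 4, among them Pax9, Tbx1 and Eya1, and of the endoderm markers 3 (Foxa2, which chose the cells, Foxa1 and Foxa3) were raised, none of them among its 10 leading genes.

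Cluster 5 held 22 cells and was led by the mesenchymal genes Nr2f1, Twist1, Mef2c, Cdh11 and Prrx1. It had a median of 20463 UMIs, against 11457.5 to 13512 in the others, and 19 of its cells had at least 2 UMIs of Twist1 and Prrx1 together. All 12 members called doublets were in it, and Kdr, an endothelial receptor gene, gave 28 UMIs there. Hhex was at 36.4 CPM (16 UMIs) in it, and at 32.5 CPM (24 UMIs) in cluster 2.

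**Figure D5:**
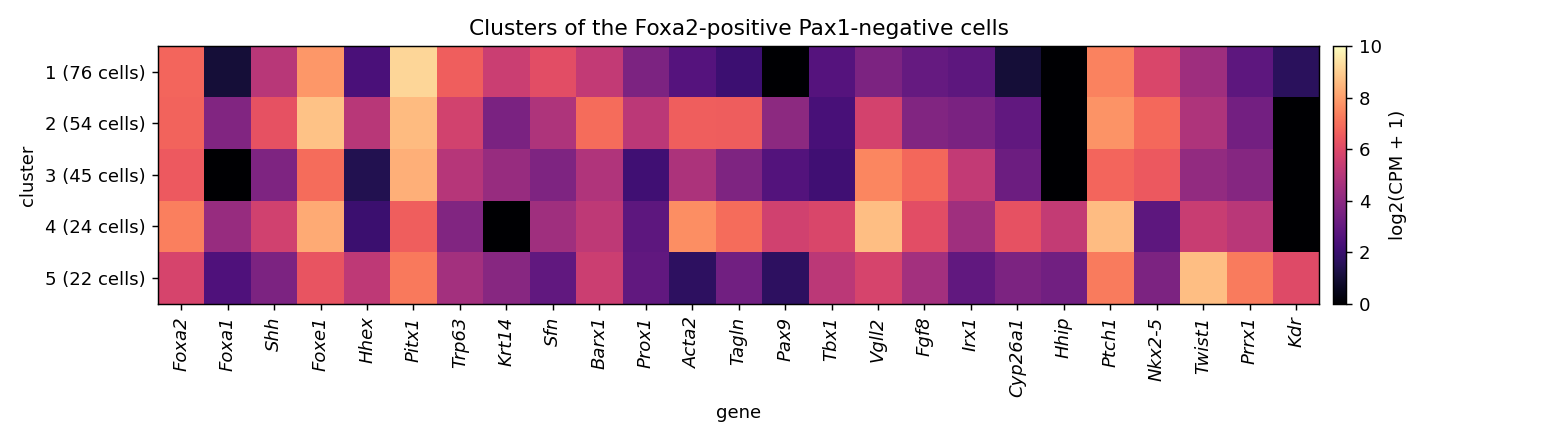
Expression, as log2(CPM + 1), of list and leading genes (x axis) in the 5 clusters of the Foxa2-positive Pax1-negative cells (y axis, with cell numbers). Pitx1 fell from 569 CPM in cluster 1 to 97.2 CPM in cluster 4, and Twist1 reached 405 CPM in cluster 5 only.

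The same rule applied to the sorted E12.0 library found 70 of 9536 Epcam-positive cells (0.734%), with a median of 7920 UMIs. Their Foxa1 was at 84.5 CPM (62.5 to 112) in 38.6% of cells, against 5.86 CPM in 6.79% at E9.5, and their Foxe1 at 36.2 CPM (22.4 to 55.4) against 240 CPM. Pitx1 was at 347 CPM (300.4 to 398) and 367 CPM, with a UMI in 85.7% and 82.4% of cells, and Trp63 at 298 CPM (256 to 346) and 53.7 CPM. Stage, sorting, litter and library cannot be told apart in this comparison.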

How the data were processed

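Libraries were 10x Genomics 3′ chemistry, 1 for each of E9.5 and E12.0. The deposited files hold UMI counts per gene and barcode, not normalized, for barcodes that cell calling had kept. The authors made them with Cell Ranger, 2.0.0 in the submitters' processing notes and 3.1.0 (E12.0) and 6.1.2 (E9.5) in the file headers, on GRCm38 (mm10). Gene names and barcodes (deposited lists) were matched by order. The E9.5 file holds 14293 barcodes and 208540526 UMIs. Of these, 1129 barcodes exceeded 5500 genes and 418 exceeded 10% mitochondrial UMIs. The E12.0 file holds 11663 barcodes and 78911671 UMIs.

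UMIs were summed per group and given as CPM with exact 95% Poisson intervals, shares with exact (Clopper-Pearson) intervals, ratios of CPM with exact conditional intervals, and joint detection with the exact interval of the joint share, using scipy 1.17.1 (Python 3.11.15), and cells were clustered with scanpy 1.11.5. With 1 library per stage, a size rule stood in for a test: a CPM ratio of at least 2 with 5 CPM added and a UMI in 15% of the cells of the higher group. Doublets were called with Scrublet (score above 0.278, seed 1) and kept. Clusters used 10000 UMIs per cell, 2000 variable genes, 20 principal components, 15 neighbours and a Leiden resolution of 0.5, without list, mitochondrial, Xist or Y-linked genes. Gene positions are from the GENCODE annotation of GRCm38. The steps were tested on simulated data.

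The members, the 27 gene lists and the tests were chosen with earlier results of these data known. Named were all list genes and the 15 genes with the highest and the lowest ratio in each comparison, and the 10 genes leading each cluster. Dapl1, Pdpn, Mycl and Rbm24, named for their promoters, were outside the rule and chosen after their values were seen. Alternatives changed the cell filters, thresholds, pseudocount, thinning and clustering. Some list and leading genes are not reported here.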

Additional observations from a re-analysis of the deposited data

How the results depend on the processing

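Requiring at least 2 Foxa2 UMIs left 56 members. Genes higher and lower were then 135 and 77 against the Pax1-positive cells (86 and 49 in the report) and 145 and 72 against the marker-free cells (71 and 28). A ratio of 1.3 gave 625 and 386 genes and 688 and 290 genes, and a ratio of 1.5 gave 262 and 163 and 277 and 108. Adding 1 CPM in place of 5 gave 82 lower against the Pax1-positive and 112 higher and 46 lower against the marker-free cells. With at least 3 Epcam UMIs in every group, 47 were higher than in the marker-free cells, 39 of them shared with the report, and 28 lower, 9 of them shared. Another setting left out cells with 2 or more UMIs of Twist1 and Prrx1 together. It gave 53 higher than in the marker-free cells, 44 of them shared, and 29 lower, 11 of them shared. Without the upper limit of 5500 genes 9 were lower there, so that 84.2% of the calls were higher. Among cells with a Pitx1 UMI, chosen after seeing the data, 40 were higher and 17 lower. Cells with a Y-linked UMI gave 89 lower than in the Pax1-positive cells, and cells with Xist and no Y-linked UMI 51 lower than in the marker-free cells. The causes of these changes were not tested.

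Of the 15 pairs, 1 stood above the product of its shares, 0 without thinning, 0 with at least 2 UMIs of each gene, 0 with at least 2 Foxa2 UMIs and 2 after thinning to 8000 UMIs. The number of clusters was 5, and 3 at a resolution of 0.3, 8 at 0.8, 3 without called doublets, and 4 with list genes kept, with 10 components or with 30. No cluster with the high Vgll2 and low Pitx1 of cluster 4 (401 and 97.2 CPM) stood apart with list genes kept, at 0.3, with 30 components or without doublets, where the nearest held 62, 64, 68 and 64 cells. Of 1162 alternative values of log2 ratios for 98 results, 864 moved by less than their counting interval, 296 moved by more and 2 reversed. The ratio of Twist1 against the marker-free cells (5 CPM added) was 0.22 with at least 3 Epcam UMIs in every group, and that of Tagln was -0.60 in cells with a Y-linked UMI. No paired analysis was possible because there was 1 library per stage. Without replicates, intervals cover counting error only.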
